A study of Homo sapiens with 15 samples.

Results

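The collagen genes of U251 cells, a human glioblastoma line, were the rows of the count table whose gene symbol has the form of a collagen chain (COL, a number, A, a number). There were 44 of them among 22447 genes. They were divided by the kind of assembly that their chains build. Fibrillar collagens had 11 genes, collagens of the basement membrane (type IV chains with COL15A1 and COL18A1) had 8, and the other collagens had 25. The study exposed wild-type U251 cells to X-rays and sequenced poly(A) RNA. The libraries fall into 5 groups of 3, which are an unirradiated control, 6 h and 24 h after 1 Gy, and 6 h and 24 h after 6 Gy. Although the control carries the label 0 h, its cells were harvested at 24 h, the time of the 24 h groups and 18 h after the harvest of the 6 h groups. A difference between a 6 h group and the control, or between 24 h and 6 h, therefore also holds a difference in time in culture, and the effects of IR and of time cannot be told apart in it. All libraries come from 1 cell line grown without other cell types, and the study describes its libraries as biological replicates and, in a legend, as independent experiments. How the cultures of a group were kept apart is not said, and p-values measure the spread between these libraries.

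A collagen molecule is a triple helix of 3 chains, either identical or the products of different genes. Fibrillar collagens are secreted as procollagens, trimmed at their ends and packed into banded fibrils. Type V and type XI collagens sit inside fibrils and help to set their diameter. Type IV collagen instead forms a flexible network, the scaffold of basement membranes, which in the brain lies around blood vessels. Type VI collagen builds beaded filaments. FACIT collagens bind to the surface of fibrils, and transmembrane collagens such as COL13A1 and COL17A1 are anchored in the plasma membrane. Collagen in glioblastoma is mostly known from the vessel wall and from tumors with mesenchymal features.

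The 6 genes of collagen IV lie as 3 pairs that are read away from each other from a shared start region. This arrangement is shown because both members of a pair can be compared. In the hg19 coordinates of the count table, 126 bases separate the starts of COL4A1 (minus strand) and COL4A2 (plus strand) at chr13:110959505-110959630. The starts of COL4A4 and COL4A3 on chromosome 2 are 5 bases apart, and those of COL4A6 and COL4A5 on the X chromosome are 346 bases apart. The sequences below are the interval between COL4A1 and COL4A2, read from GRCh37 on the plus strand, and the 250 bases before the start of 2 fibrillar genes that were higher and 2 transmembrane genes that were lower at 24 h, from RefSeq on GRCh38.p14 on the strand of the gene. Capitals mark a CCAAT box (CCAAT), a GC box (GGGCGG) or a TATA box (TATAAA) on either strand, and the AP-1 element TGACTCA was searched in the same way.
COL4A1 to COL4A2 interval: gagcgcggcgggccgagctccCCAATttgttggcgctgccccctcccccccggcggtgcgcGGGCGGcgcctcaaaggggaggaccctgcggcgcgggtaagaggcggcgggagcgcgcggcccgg
COL11A1: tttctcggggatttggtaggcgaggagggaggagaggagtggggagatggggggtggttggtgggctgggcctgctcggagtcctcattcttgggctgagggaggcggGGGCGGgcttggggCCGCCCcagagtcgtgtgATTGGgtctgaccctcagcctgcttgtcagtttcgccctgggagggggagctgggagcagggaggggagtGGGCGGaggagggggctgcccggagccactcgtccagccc
COL5A1: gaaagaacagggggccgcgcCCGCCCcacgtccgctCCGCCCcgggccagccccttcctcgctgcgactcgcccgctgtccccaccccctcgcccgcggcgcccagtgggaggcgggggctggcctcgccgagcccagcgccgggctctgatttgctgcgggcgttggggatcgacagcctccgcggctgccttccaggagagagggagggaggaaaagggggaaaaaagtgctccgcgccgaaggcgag
COL17A1: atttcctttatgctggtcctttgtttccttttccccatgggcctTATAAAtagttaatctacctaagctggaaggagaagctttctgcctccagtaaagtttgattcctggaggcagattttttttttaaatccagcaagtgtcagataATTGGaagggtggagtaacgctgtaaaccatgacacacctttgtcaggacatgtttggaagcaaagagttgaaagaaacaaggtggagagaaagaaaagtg
COL13A1: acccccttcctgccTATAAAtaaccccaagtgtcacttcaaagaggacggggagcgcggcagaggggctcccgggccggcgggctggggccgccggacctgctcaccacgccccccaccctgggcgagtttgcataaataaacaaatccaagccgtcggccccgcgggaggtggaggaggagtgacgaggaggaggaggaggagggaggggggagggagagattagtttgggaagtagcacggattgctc

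RefSeq promoters matched 32 of the 44 genes, and COL5A2 was without an entry. The window of COL11A1 held 1 CCAAT box and 3 GC boxes, and that of COL5A1 held 2 GC boxes. COL17A1 had 1 CCAAT box, 1 TATA box and no GC box, with a GC content of 40.4% against a median of 58% over 35116 promoter windows. COL13A1 had 1 TATA box and neither of the other boxes. A match was counted anywhere in a window. The TATA boxes of COL17A1 and COL13A1 both lie in the upstream part of the window, far from the start of the gene. Whether these matches act in the promoter was not tested. Of all windows of 250 bases, 32% held a CCAAT box, 42.6% a GC box, 10.7% a TATA box and 4.2% the AP-1 element, which had no match in the windows shown. The interval of COL4A1 and COL4A2 held 1 CCAAT box and 1 GC box and had a GC content of 80.2%. Of windows of 126 bases, 21.1% held a CCAAT box and 34.6% a GC box.

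The libraries held 8691338 to 11719631 counts. The values tested come from 13 libraries. Control replicate 3 and 1 Gy 6 h replicate 2 were left out because the study's own comparisons leave them out, for which no reason is given. Levels of all 15 libraries are given as CPM, the counts relative to the library size adjusted by the TMM method of edgeR. To be called, a gene needed an adjusted p below 0.05 together with a change of more than 0.5 on the log2 scale in either direction, the minimum fold. Markers went with the label in part, since VIM, NES, CD44 and SOX2 were high (233 CPM or more in every library), GFAP reached 4.60 CPM and OLIG2 had no count. Of the 8 fibroblast and perivascular markers, THY1 was expressed (126 to 169 CPM), while DCN, LUM and FAP were at 0 in some libraries and never above 0.575 CPM. PDGFRB had 8.23 to 20.3 CPM, ACTA2 3.50 to 7.71, RGS5 3.44 to 4.88 and PDGFRA 0.308 to 2.66. No count of PECAM1, EPCAM or HBB was found, but other markers of their lists were counted. The endothelial marker CDH5 had 3.94 to 10.9 CPM and the blood marker CD14 0.521 to 1.56. Of the epithelial markers, KRT5 had 0.417 to 2.77 CPM and KRT14 0.869 to 2.36. The neuronal marker SNAP25 had 5.36 to 8.96 CPM. The line is cultured alone, and in such bulk RNA fewer cells expressing a gene and less RNA per cell cannot be told apart.

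Of the 44 collagen genes, 29 had enough counts to be tested, namely 7 of the 11 fibrillar, 7 of the 8 basement membrane and 15 of the 25 other genes. The 15 that were not tested had at most 11 counts in any library, or 1.09 CPM. They include COL3A1, the partner of type I collagen in many tissues, with 0 to 7 counts per library, COL2A1 of cartilage with 0 to 3, COL5A3 with 0 to 2 and COL15A1 with 0 to 9. COL22A1 had 0 counts in all 15 libraries, which allows a level of up to 0.0204 CPM by counting error alone.

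Per kilobase of transcript, the mean level spanned more than 3 orders of magnitude among the tested genes. COL6A1 led with 198 CPM per kb, followed by its partner COL6A2 with 113 and COL1A2 with 93.4. COL4A2 (39.1), the FACIT collagen COL14A1 (28.5), COL5A1 (21.0) and COL4A1 (20.8) came next, then COL5A2 with 16.4 and COL11A1 with 14.5 CPM per kb. Neighbours in this order need not differ: in the control COL5A1 had 17.5 ± 1.61 and COL4A1 17.9 ± 0.216 CPM per kb (SD, n = 2). At the low end COL4A3 had 0.718, COL19A1 0.465, COL26A1 0.348 and COL11A2 0.109 CPM per kb.

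**Figure D1:**
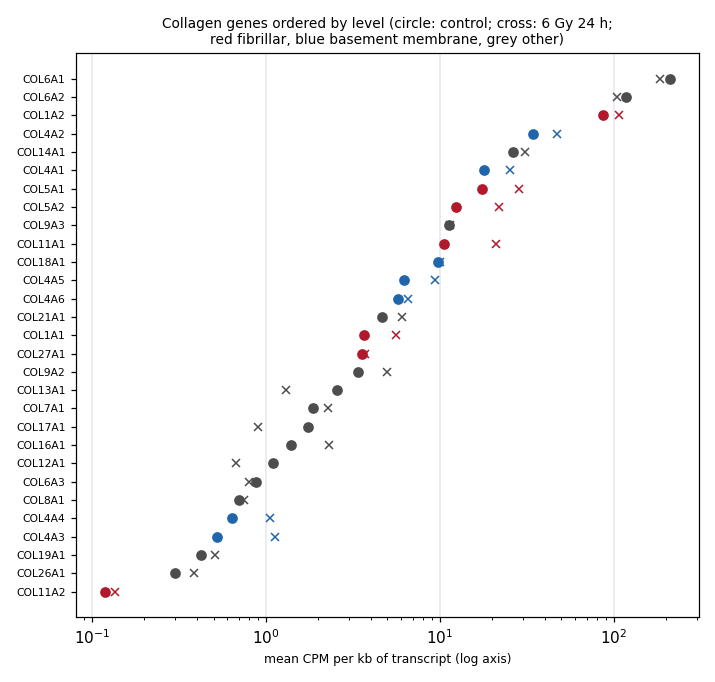
Mean level of the 29 tested collagen genes in CPM per kilobase of transcript on a log axis, in the control (circles) and 24 h after 6 Gy (crosses), with genes ordered by the control and colors for the 3 classes. COL6A1, COL6A2 and COL1A2 stand at the top, and the crosses of COL11A1 and COL5A2 lie to the right of their circles while those of COL13A1, COL17A1 and COL12A1 lie to the left.

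All collagen genes together made up 2919 ± 95.3 CPM in the control (SD, n = 2), 2987 ± 104 at 6 h after 1 Gy (n = 2), 3054 ± 149 at 24 h after 1 Gy, 2877 ± 141 at 6 h after 6 Gy and 3325 ± 130 at 24 h after 6 Gy (n = 3 each). The make-up of this total differed between the groups. Fibrillar genes gave 27.5% ± 0.681 of all collagen counts in the control, 26.1% ± 0.0118 at 6 h after 1 Gy and 24.6% ± 0.735 at 6 h after 6 Gy. At 24 h they gave 35.5% ± 0.514 after 1 Gy and 34.7% ± 1.56 after 6 Gy. Both libraries left out of the fit fell with the low groups, at 28.5% for the control and 24.0% at 6 h after 1 Gy. Basement membrane genes went from 16.4% in the control to 18.8% at 24 h after 1 Gy and 19.5% at 24 h after 6 Gy. The other collagens went from 56.0% to 45.7% and 45.8%. In CPM the other collagens summed to 1636, 1394 and 1524 in the same groups, and without COL6A1 to 749, 706 and 745. Of the 15 tested other genes, 9 had a log2 fold change above 0 at 24 h against the control after each dose, and 6 below. The shares of the 3 classes sum to 100 in each library, so that they are not independent, and no test was made of them.

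**Figure D2:**
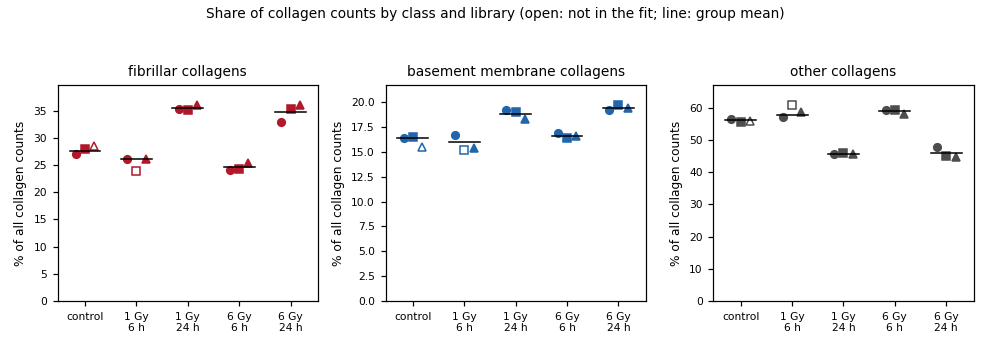
Share of all collagen counts (percent, vertical axis) from fibrillar, basement membrane and other collagens in each of the 15 libraries by group, with replicates 1, 2 and 3 as circle, square and triangle, open symbols for the libraries left out of the fit and lines for group means. Every 24 h library lies at 33.0% or more for fibrillar genes, and every control and 6 h library at 28.5% or less.

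At 6 h after 1 Gy, no collagen gene passed the test against the control. The edgeR quasi-likelihood test called 0 of 29, as it called 0% of all 12719 tested genes. None of the 29 had an unadjusted p under 0.05, against 3.11% of all genes, and DESeq2 called none either. The median log2 fold change of the 29 was -0.03, against 0.00 over all genes.

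At 6 h after 6 Gy the call rule was again passed by 0 of 29 collagen genes, against 0.252% of all genes called higher and 0.818% called lower (1.07% in either direction), and DESeq2 called 0. Unadjusted p-values under 0.05 numbered 9, all for lower levels, and 5 of them belonged to the 7 fibrillar genes. Over all genes, 15.3% had such a p (8.96% for lower and 6.35% for higher levels). COL11A1 had the lowest adjusted p in edgeR's quasi-likelihood test (log2 fold change -0.39 ± 0.0864 SE, adjusted p = 0.0125) and missed only the minimum fold. COL27A1, a fibrillar collagen of cartilage, had -0.41 (adjusted p = 0.114) and COL5A2 -0.28 (adjusted p = 0.117). Without control replicate 2, COL27A1 was called lower. The median log2 fold change of the fibrillar genes was -0.28.

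At 24 h, the fibrillar genes COL11A1 and COL5A2 were higher than in the control after both doses, 4 genes of type IV collagen were called higher after 6 Gy, and the other collagens COL12A1, COL13A1 and COL17A1 were lower after both. After 1 Gy, 2 of the 29 were called higher (3.18% of all genes) and 3 lower (1.23% of all genes, or 4.42% in either direction). Without control replicate 1 there were 4 higher after 1 Gy, with COL4A4 and COL21A1 added. After 6 Gy, 10 were called higher (5.58% of all genes) and 3 lower (2.19% of all genes, or 7.77% in either direction). Both comparisons use the same control libraries. The fibrillar median log2 fold change was 0.29 after 1 Gy and 0.60 after 6 Gy, with 7 of 7 genes above 0 each time. The basement membrane median was 0.40 and 0.51, that of the other collagens 0.17 and 0.11, and that of all genes 0.00 each time.

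**Figure D3:**
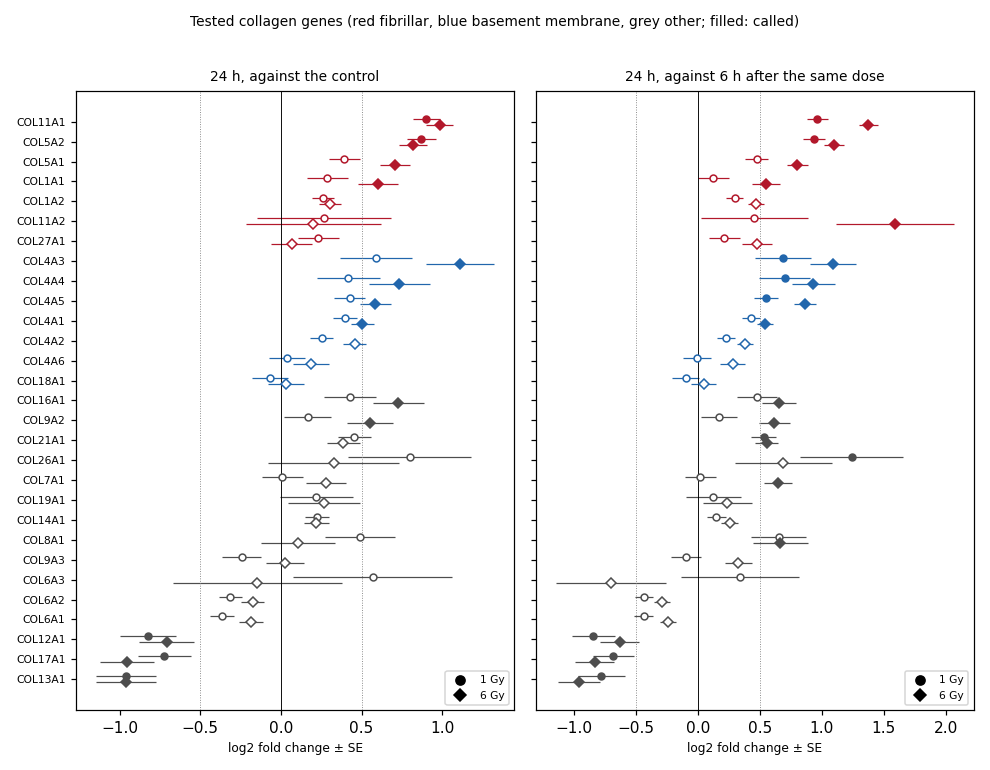
Log2 fold change with its SE (horizontal axis) for the 29 tested collagen genes, at 24 h against the control (left) and at 24 h against 6 h after the same dose (right), with circles for 1 Gy, diamonds for 6 Gy, filled symbols for called genes and dotted lines at the minimum fold. Fibrillar genes (red) all lie to the right of 0 in both panels, and COL12A1, COL17A1 and COL13A1 lie beyond the dotted line on the left in both.

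COL11A1 encodes a chain of type XI collagen, which is found in cartilage fibrils and in the stroma of several carcinomas. It stood at 76.1, 79.4 and 70.4 CPM in control replicates 1, 2 and 3 (the last not in the fit). At 6 h it had 77.8, 56.0 and 71.3 CPM after 1 Gy (the middle value not in the fit) and 58.8, 54.2 and 65.0 CPM after 6 Gy. At 24 h it had 145, 137 and 154 CPM after 1 Gy and 144, 155 and 163 CPM after 6 Gy. All 6 libraries at 24 h lay above the other 9, whose highest value was 79.4 CPM. The gene rose 1.87-fold after 1 Gy (adjusted p = 3.34e-07, edgeR quasi-likelihood test) and 1.98-fold after 6 Gy (adjusted p = 7.08e-08).

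COL5A2, a chain of type V collagen that assembles with COL5A1, followed the same course. Control libraries had 84.6, 85.0 and 82.2 CPM, and the 6 h libraries 83.3, 58.0 and 78.7 CPM after 1 Gy and 67.6, 66.3 and 75.7 CPM after 6 Gy. The 24 h libraries had 162, 141 and 161 CPM after 1 Gy and 132, 156 and 161 CPM after 6 Gy, without overlap with the other groups. Its log2 fold change against the control was 0.87 ± 0.0895 after 1 Gy and 0.82 ± 0.0895 after 6 Gy (adjusted p = 9.21e-07 and 1.38e-06, edgeR quasi-likelihood test).

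The partner chain COL5A1 had its highest values 24 h after 6 Gy. It had 158, 139 and 147 CPM in the control, 203, 181 and 199 CPM at 24 h after 1 Gy and 266, 224 and 234 CPM at 24 h after 6 Gy. The 3 groups did not overlap. It was called higher after 6 Gy (log2 fold change 0.71 ± 0.0951, adjusted p = 1.79e-05, edgeR quasi-likelihood test), while the value after 1 Gy was 0.39 ± 0.0949 (adjusted p = 0.0082), below the minimum fold. The difference of 6 Gy from 1 Gy at 24 h was 0.31 ± 0.0829 with an adjusted p of 0.0376 in edgeR's quasi-likelihood test, also below the minimum fold.

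Type I collagen, the main fibril protein of skin and bone, had 1 of its 2 chains called. COL1A1 had 22.4, 21.1 and 25.2 CPM in the control, 27.6, 26.8 and 24.97 CPM at 24 h after 1 Gy and 34.1, 29.1 and 35.7 CPM at 24 h after 6 Gy. It was called after 6 Gy (log2 fold change 0.60 ± 0.126, adjusted p = 0.00155, edgeR quasi-likelihood test). COL1A2 had 433, 450 and 470 CPM in the control and 525, 531 and 578 CPM at 24 h after 6 Gy, and its log2 fold change of 0.30 ± 0.0697 (adjusted p = 0.00326) was below the minimum fold. The remaining fibrillar genes, COL27A1 and COL11A2, had log2 fold changes of 0.07 and 0.20 after 6 Gy and were not called.

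Of the 6 genes of type IV collagen, 4 were called higher at 24 h after 6 Gy and 0 after 1 Gy. After 1 Gy, 5 of the 7 basement membrane genes had an unadjusted p under 0.05, all for higher levels. Over all genes, 26.8% had such a p (13.9% for higher levels). The lowest adjusted p of the 7 was 8.31e-04 in edgeR's quasi-likelihood test, and the gene with this value missed only the minimum fold. DESeq2 called 0 after 1 Gy. The most widespread chains are COL4A1 and COL4A2. COL4A1 had 118, 116 and 105 CPM in the control, 156, 152 and 154 CPM at 24 h after 1 Gy and 171, 168 and 159 CPM at 24 h after 6 Gy (log2 fold change after 6 Gy 0.51 ± 0.0727, adjusted p = 3.77e-05, edgeR quasi-likelihood test). The estimate lies close to the minimum fold, and the call was lost without control replicate 2 and without 6 Gy 24 h replicate 1 or 2. COL4A2 had 226, 213 and 206 CPM in the control and 314, 292 and 301 CPM at 24 h after 6 Gy, with a log2 fold change of 0.46 ± 0.0719, which missed the minimum fold.

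COL4A3 and COL4A4, chains of the mature glomerular basement membrane, were the type IV genes with the fewest counts. COL4A3 had 3.84, 4.54 and 4.59 CPM in the control, 6.72, 4.95 and 7.21 CPM at 24 h after 1 Gy and 10.1, 8.92 and 8.21 CPM at 24 h after 6 Gy, a 2.16-fold rise after 6 Gy (adjusted p = 6.39e-04, edgeR quasi-likelihood test). COL4A4 had 8.10, 4.73 and 5.33 CPM in the control and 9.13, 11.4 and 11.2 CPM at 24 h after 6 Gy (log2 fold change 0.73 ± 0.189, adjusted p = 0.00735). Without control replicate 2 the call of COL4A4 was lost.

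COL4A5 and COL4A6 share a start region on the X chromosome but differed in their values. COL4A5 had 39.3, 42.0 and 36.8 CPM in the control, 57.8, 50.5 and 55.5 CPM at 24 h after 1 Gy and 57.0, 58.5 and 67.8 CPM at 24 h after 6 Gy (log2 fold change after 6 Gy 0.59 ± 0.0952, adjusted p = 1.46e-04, edgeR quasi-likelihood test). COL4A6 had 40.7, 36.3 and 39.9 CPM in the control, 40.3, 34.4 and 43.6 CPM at 24 h after 1 Gy and 41.6, 43.2 and 46.5 CPM at 24 h after 6 Gy. Its log2 fold change was 0.04 ± 0.113 after 1 Gy and 0.19 ± 0.112 after 6 Gy, with 95% intervals of -0.20 to 0.27 and -0.05 to 0.42. COL18A1, the source of endostatin, had 0.03 ± 0.111 after 6 Gy (95% interval -0.20 to 0.26).

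**Figure D4:**
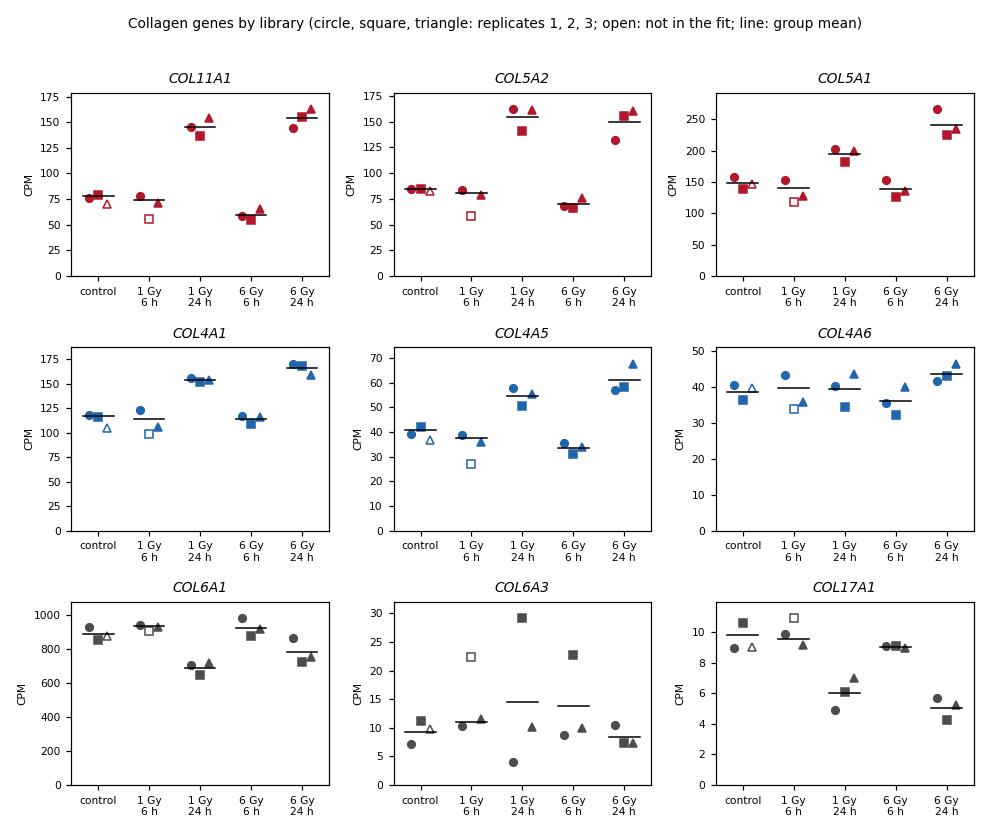
CPM (vertical axis, from 0) of 9 collagen genes in each of the 15 libraries by group, with replicates 1, 2 and 3 as circle, square and triangle, open symbols for libraries left out of the fit and lines for group means. COL11A1 and COL5A2 are higher in all 24 h libraries, COL6A1 and COL17A1 have their lowest group means at 24 h, and COL6A3 stands apart in replicate 2 of 3 groups.

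The 3 genes that were lower encode membrane or fibril-associated collagens. COL13A1, a transmembrane collagen of cell contacts, had 8.31, 7.72 and 7.72 CPM in the control, 3.74, 4.14 and 4.55 CPM at 24 h after 1 Gy and 4.77, 3.27 and 4.31 CPM at 24 h after 6 Gy. COL17A1, a transmembrane collagen of hemidesmosomes in skin, had 8.95, 10.6 and 9.003 CPM in the control, 4.93, 6.10 and 6.99 CPM at 24 h after 1 Gy and 5.68, 4.26 and 5.24 CPM at 24 h after 6 Gy. For both genes the 24 h libraries lay below all control and 6 h libraries. COL13A1 fell by 0.96 on the log2 scale after 1 Gy (adjusted p = 0.00145, edgeR quasi-likelihood test) and after 6 Gy (adjusted p = 8.07e-04). COL17A1 fell by 0.72 after 1 Gy (adjusted p = 0.00528, edgeR quasi-likelihood test) and by 0.96 after 6 Gy (adjusted p = 3.41e-04). The call of COL17A1 after 1 Gy was lost without control replicate 2.

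COL12A1, a FACIT collagen, had 14.3, 11.6 and 10.7 CPM in the control, 8.08, 5.87 and 7.66 CPM at 24 h after 1 Gy and 7.91, 8.53 and 7.19 CPM at 24 h after 6 Gy. It fell by 0.83 after 1 Gy and by 0.71 after 6 Gy on the log2 scale (adjusted p = 0.00313 and 0.00503, edgeR quasi-likelihood test), and both calls were lost without control replicate 1. Other FACIT collagens went the opposite way after 6 Gy. COL16A1 had 6.71, 8.40 and 9.92 CPM in the control and 12.98, 12.99 and 11.7 CPM at 24 h after 6 Gy (log2 fold change 0.73 ± 0.158, adjusted p = 0.00207, edgeR quasi-likelihood test). COL9A2, a cartilage collagen, had 8.74, 10.5 and 7.07 CPM in the control and 15.5, 13.5 and 13.6 CPM at 24 h after 6 Gy (log2 fold change 0.55 ± 0.140, adjusted p = 0.00664). Without control replicate 1 both of these calls were lost, and that of COL9A2 also without 6 Gy 24 h replicate 1. COL14A1 had a log2 fold change of 0.22 ± 0.0764 after 6 Gy and was not called.

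Type VI collagen, the most abundant collagen of these cells per length, had lower values at 24 h that were small in size. COL6A1 had 925, 849 and 874 CPM in the control, 705, 643 and 714 CPM at 24 h after 1 Gy and 865, 719 and 753 CPM at 24 h after 6 Gy. Its log2 fold change after 1 Gy was -0.37 ± 0.0749 (adjusted p = 0.00222, edgeR quasi-likelihood test) and that of COL6A2 was -0.31 ± 0.0723 (adjusted p = 0.00572), both short of the minimum fold. After 6 Gy the values were -0.19 (adjusted p = 0.0758) and -0.17 (adjusted p = 0.0845) by the same test.

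COL6A3, the third chain of type VI collagen, varied more between replicates than between groups. It had 7.25, 11.2 and 9.74 CPM in the control and 10.4, 7.34 and 7.39 CPM at 24 h after 6 Gy. At 24 h after 1 Gy it had 4.08, 29.1 and 10.1 CPM, at 6 h after 6 Gy 8.75, 22.7 and 9.90 CPM, and at 6 h after 1 Gy 10.3, 22.4 and 11.6 CPM. Replicate 2 thus stood apart in 3 of the 5 groups. COL6A3 was not called in any of the 9 comparisons, but with no filter on low counts it was called higher than the control at 24 h after 1 Gy and at 6 h after 6 Gy.

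The 24 h and 6 h groups of the same dose share no library with those of the other dose. After 1 Gy, 7 collagen genes were called higher at 24 h than at 6 h (3.9% of all genes) and 3 lower (1.58% of all genes, or 5.48% in either direction). After 6 Gy the counts were 14 higher (7.57% of all genes) and 3 lower (3.06% of all genes, or 10.6% in either direction). The lower genes were COL12A1, COL13A1 and COL17A1 each time. Among the higher ones, COL11A1, COL5A2, COL4A3, COL4A4, COL4A5 and COL21A1 were called after both doses. The call of COL4A3 after 1 Gy was lost in 9 of 26 alternatives (adjusted p up to 0.39 in edgeR's quasi-likelihood test or DESeq2), with log2 fold changes of 0.37 to 1.13. The count after 1 Gy rests on single libraries, since 2 genes stayed higher without 1 Gy 6 h replicate 3, 4 without 1 Gy 24 h replicate 1, and 1 stayed lower without 1 Gy 6 h replicate 1.

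COL11A1 rose 2.59-fold from 6 h to 24 h after 6 Gy (log2 fold change 1.37 ± 0.0758, adjusted p = 2.17e-11, edgeR quasi-likelihood test), and COL5A2 2.14-fold (adjusted p = 1.93e-09). After 1 Gy the corresponding rises were 1.95-fold and 1.91-fold. COL21A1, a FACIT collagen, had 19.9, 14.5 and 16.9 CPM at 6 h after 1 Gy and 25.9, 27.1 and 27.3 CPM at 24 h, and 17.6, 17.7 and 16.7 CPM and 25.5, 24.5 and 26.4 CPM after 6 Gy. Its log2 fold changes were 0.53 ± 0.103 and 0.55 ± 0.0931 (adjusted p = 0.00115 and 1.01e-04, edgeR quasi-likelihood test). Against the control it had 0.46 after 1 Gy and 0.39 after 6 Gy, below the minimum fold.

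Further genes were called between 24 h and 6 h after 6 Gy. COL7A1, the anchoring fibril collagen of skin, had 15.2, 12.7 and 12.2 CPM at 6 h and 22.2, 22.0 and 18.6 CPM at 24 h (log2 fold change 0.65 ± 0.114, adjusted p = 1.67e-04, edgeR quasi-likelihood test). COL8A1, a short-chain collagen of vessel walls, had 1.77, 3.07 and 3.02 CPM at 6 h and 4.16, 3.47 and 4.83 CPM at 24 h (0.66 ± 0.223, adjusted p = 0.0251). COL11A2 rested on 2 to 3 counts per library at 6 h and 7 to 10 at 24 h (1.59 ± 0.475, adjusted p = 0.0125 by the same test). It reached 1.22 CPM at 24 h after 1 Gy and 1.01 CPM at 24 h after 6 Gy. Its highest values in the other fitted groups were 0.772 (control), 0.670 (6 h after 1 Gy) and 0.329 CPM (6 h after 6 Gy). It thus passed the filter on low counts only through 24 h libraries, where it was high, and its test is no independent support. Of 13 fits without 1 library, 7 kept it. The call of COL8A1 was lost without 6 Gy 6 h replicate 1 or 6 Gy 24 h replicate 3, that of COL1A1 in this comparison without 6 Gy 6 h replicate 2 or 6 Gy 24 h replicate 3, and DESeq2 called neither COL8A1 nor COL11A2. After 1 Gy, COL26A1 was called on 6 and 7 counts at 6 h and 12 to 20 at 24 h (1.24 ± 0.414, adjusted p = 0.045, edgeR quasi-likelihood test). This call was lost in 13 of 26 alternatives, DESeq2 and the omission of any 1 of the 5 libraries compared among them, with an adjusted p of up to 0.273. COL26A1 had at most 0.775 CPM in the fitted libraries at 6 h after 1 Gy and 1.33 to 1.73 CPM at 24 h. It too passed the filter on low counts mostly through 24 h libraries.

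Between the doses, no collagen gene was called at 6 h or at 24 h. At 6 h the edgeR quasi-likelihood test called 0 of 29, with 0.582% of all genes called (0.0157% higher and 0.566% lower), and 4 genes (COL11A1, COL5A2, COL7A1 and COL27A1) had an unadjusted p under 0.05, all lower after 6 Gy, against 7.42% of all genes (4.54% lower). At 24 h it called 0 of 29, with 0.44% of all genes called (0.267% higher and 0.173% lower), and 10 genes had an unadjusted p under 0.05, all higher after 6 Gy, against 19% of all genes (9.37% higher). DESeq2 called 0 at both times. The 24 h difference was 0.52 ± 0.172 for COL4A3 (adjusted p = 0.0974), 0.39 ± 0.122 for COL9A2 (adjusted p = 0.083), 0.31 ± 0.109 for COL1A1 (adjusted p = 0.116) and 0.21 ± 0.0634 for COL4A2 (adjusted p = 0.0742) by edgeR's quasi-likelihood test. For COL11A1 the doses were 145 and 154 CPM in the mean at 24 h.

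Whether the change from 6 h to 24 h differed with dose was tested by the interaction term. It called 0 of 29 collagen genes and 0.291% of all genes (0.267% higher and 0.0236% lower), and 7 genes (COL7A1, COL11A1, COL9A2, COL1A1, COL9A3, COL5A1 and COL4A5) had an unadjusted p under 0.05, all with a positive difference (24 h minus 6 h, 6 Gy minus 1 Gy). Of all genes, 11.2% had such a p (6.27% with a positive difference). DESeq2 called 0. The 2 lowest p-values belonged to COL7A1 (log2 difference 0.63 ± 0.171, adjusted p = 0.136, edgeR quasi-likelihood test) and COL11A1 (0.41 ± 0.112, adjusted p = 0.136). COL9A3 overlaps TCFL5 on the opposite strand, a gene with 8509 counts over the 15 libraries against 3698 of COL9A3, and the sources used here do not say whether reads were counted by strand, so that its values are uncertain.

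Ratios of partner chains within a library do not depend on the scaling. COL6A2 to COL6A1 was the steadiest ratio, with group means from 0.458 to 0.478. COL1A2 to COL1A1 was 16.6 to 20.4 in the group means. Type I collagen protein is classically built of more COL1A1 than COL1A2 chains. COL4A2 to COL4A1 was 1.88 ± 0.0538 in the control (n = 2), 1.70 ± 0.0543 at 24 h after 1 Gy and 1.82 ± 0.08 at 24 h after 6 Gy, and 1.96 and 2.03 at 6 h. COL4A6 to COL4A5 was 0.9498 ± 0.121 in the control, 1.05 and 1.07 at 6 h, and 0.721 ± 0.0565 and 0.718 ± 0.0281 at 24 h, where all 6 libraries lay at or below 0.786 and all others at or above 0.864. COL5A2 to COL5A1 was 0.575 ± 0.0543 in the control, 0.796 ± 0.0154 at 24 h after 1 Gy and 0.626 ± 0.112 at 24 h after 6 Gy. COL5A3, with at most 2 counts, hardly contributed to type V collagen RNA. No test was made of the ratios.

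**Figure D5:**
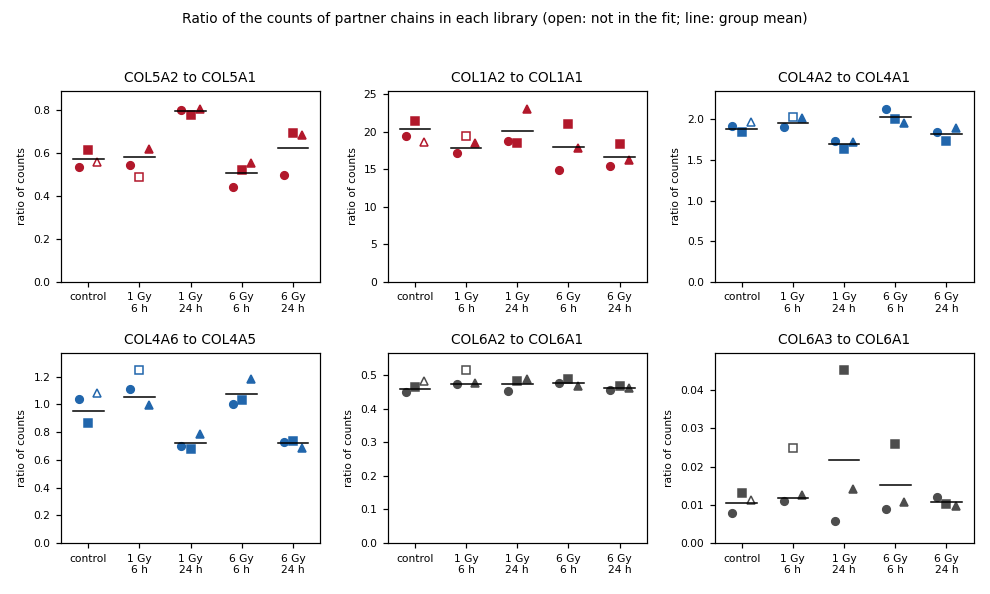
Ratio of the counts of partner chains (vertical axis, from 0) in each of the 15 libraries by group, with replicates 1, 2 and 3 as circle, square and triangle, open symbols for libraries left out of the fit and lines for group means. COL6A2 to COL6A1 stays near 0.458 to 0.478 in the means, COL4A6 to COL4A5 is lower in all 24 h libraries, and COL6A3 to COL6A1 reaches 0.0453 in 1 library at 24 h after 1 Gy.

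Among genes that act on collagen, more had an adjusted p under 0.05 than also passed the minimum fold. At 24 h after 6 Gy, 15 of 35 tested genes of the 3 lists had such a p in edgeR's quasi-likelihood test (11 higher and 4 lower), against 23.6% of all genes. They were 7 higher and 2 lower of the 22 processing genes, 3 higher of the 8 receptors, and 1 higher and 2 lower of the 5 collagenases and gelatinases. At 24 h after 1 Gy, 4 were higher and 4 lower of the 35, against 12.1% of all genes. With the minimum fold, 1 processing gene and 1 collagenase were called after 1 Gy against the control, both lower, with 4.42% of all genes called. After 6 Gy they were 1 higher and 1 lower processing gene and 2 lower collagenases or gelatinases, with 7.77% of all genes called. At 24 h against 6 h after 6 Gy, 2 processing genes and 1 receptor were higher. In the same comparison 1 processing gene and 1 collagenase were lower, with 10.6% of all genes called. Of 22 tested genes for modifying, folding, cutting and cross-linking collagen, LOX, the lysyl oxidase that cross-links fibrils, was lower at 24 h after both doses, with 60.9 ± 1.13 CPM in the control (n = 2), 35.8 ± 3.33 after 1 Gy and 35.6 ± 1.48 after 6 Gy (log2 fold change -0.76 ± 0.0912 and -0.78 ± 0.0911, adjusted p = 6.14e-06 and 3.12e-06, edgeR quasi-likelihood test). Its relative LOXL3 was higher at 24 h after 6 Gy (1.25 ± 0.323, adjusted p = 0.00744), from 1.53 ± 0.393 to 3.64 ± 0.854 CPM. The other 20 were not called against the control. Among them PLOD1, a lysyl hydroxylase, had a log2 fold change of 0.45 ± 0.0634 after 6 Gy (adjusted p = 2.7e-05, edgeR quasi-likelihood test) and P4HB, a subunit of prolyl hydroxylase, 0.29 ± 0.066 (adjusted p = 0.00292). LOXL4 was higher at 24 h than at 6 h after 6 Gy (1.65 ± 0.432, adjusted p = 0.00514, edgeR quasi-likelihood test), from 0.492 to 1.58 CPM in the mean. The means of LOXL4 were 0.706 CPM in the control, 0.697 at 6 h after 1 Gy and 0.774 at 24 h after 1 Gy. It thus passed the filter on low counts mostly through the group where it was high, and its test is no independent support.

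Of 5 tested collagenases and gelatinases, the interstitial collagenase MMP1 was lower after both doses (-1.27 ± 0.367 and -1.86 ± 0.399, adjusted p = 0.0257 and 0.00188, edgeR quasi-likelihood test) at levels of 2.22 CPM in the control and 0.916 and 0.603 CPM at 24 h. CTSK was lower after 6 Gy (-0.97 ± 0.327, adjusted p = 0.0359). MMP14, a membrane-bound collagenase, had 0.37 ± 0.0982 after 6 Gy (adjusted p = 0.00879), below the minimum fold. Of 8 tested receptors, 1 was called in any of the 9 comparisons. The endocytic receptor MRC2 had 0.46 ± 0.077 (adjusted p = 2.09e-04), DDR1 0.43 ± 0.0753 (adjusted p = 2.99e-04) and DDR2 0.36 ± 0.0861 (adjusted p = 0.00467) at 24 h after 6 Gy against the control by the same test. DDR2, a receptor for fibrillar collagen, was higher at 24 h than at 6 h after 6 Gy (0.60 ± 0.0776, adjusted p = 5.12e-06, edgeR quasi-likelihood test), with 68.7 ± 3.45 and 104 ± 8.44 CPM.

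The summed level of the 8 fibroblast and perivascular markers was 147 to 162 CPM in the control libraries, 167 to 173 CPM at 24 h after 1 Gy and 168 to 203 CPM at 24 h after 6 Gy. At 24 h it was thus higher, as the fibrillar genes were. At 6 h the marker sum was 150 to 164 CPM. These marker ranges cover all 15 libraries. In the fitted libraries, the fibrillar genes summed to a mean of 803 CPM in the control, 781 CPM at 6 h after 1 Gy and 707 CPM at 6 h after 6 Gy. The 1 Gy libraries at 6 h (801 and 762 CPM) overlapped those of the control (808 and 799 CPM). No fibrillar gene was called at 6 h against the control, and the sums were not tested. THY1 made up most of the marker sum, and DCN had 11 counts and LUM 3 counts over all 15 libraries. The part of these markers in the result was not tested. Endothelial markers summed to 6.80 to 8.85 CPM in the control and 10.3 to 12.4 CPM at 24 h after 6 Gy, mostly from CDH5, with PECAM1 at 0 in every library, beside the higher type IV genes, and their part was not tested either.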

How the data were processed

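Poly(A) RNA of 15 U251 libraries was sequenced. Per the submitters' processing notes and the study's methods, the authors used TopHat for alignment to hg19 and HTSeq for counting over transcripts. Tool versions and kit strandedness: not given in the sources used here. The deposited values used are raw counts of 22447 genes. The authors' own fold changes, p-values, calls and scaled values, which were also deposited, were not used as values. Only the choice of the 13 fitted libraries follows them. The tests on counts used edgeR 4.0.16 under R 4.3.3 (filterByExpr with a minimum count of 10, TMM scaling, quasi-likelihood fit of 13 libraries in 5 groups, Benjamini-Hochberg adjustment over 12719 genes) in 9 comparisons, with DESeq2 1.42.0 as an alternative. The procedure was tested on simulated data. Transcript lengths for CPM per kb are those of GENCODE transcripts. Promoters are from RefSeq. Figures were drawn with matplotlib 3.10.9.

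The members and lists were chosen with earlier results of these data known. Genes described one by one were those called in any comparison, the 5 highest per length and partner chains of a called gene. The others are summarised, except that COL2A1, COL3A1, COL6A3, COL15A1, COL18A1, COL19A1, COL22A1, COL27A1 and the uncalled PLOD1, P4HB, MMP14, MRC2 and DDR1 were named after their values were seen. CPM intervals and limits cover counting error only. Other choices tried were all 15 libraries, other scalings and filters, other thresholds, only the groups compared, a replicate block and each library left out in turn.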

Additional observations from a re-analysis of the deposited data

Results flagged for a closer look

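COL7A1 drew attention because its dose difference turned with time. At 6 h every 6 Gy library lay below every 1 Gy library, and at 24 h every 6 Gy library lay above. The gap at 24 h was narrow, with 18.54 CPM in the highest 1 Gy library and 18.58 CPM in the lowest 6 Gy library. The log2 difference was 0.627, but the test of the interaction did not pass over all genes (adjusted p = 0.136, edgeR quasi-likelihood test).

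COL6A3 reached 22.4 CPM in replicate 2 at 6 h after 1 Gy, a library that entered no test. All control libraries were at or below 11.2 CPM. The same replicate number was high in 2 groups that were tested, at 29.1 CPM (24 h after 1 Gy) and 22.7 CPM (6 h after 6 Gy).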

How the results depend on the processing

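No log2 fold change of a called collagen gene changed sign under any alternative. Of 1161 values, 1111 stayed past the threshold and 50 lost it. With no minimum fold, the collagen genes called at 24 h against the control after 1 Gy were 8 higher and 5 lower (12.1% of all genes in either direction). At 24 h against 6 h they were 11 higher and 5 lower after 1 Gy (15.9% of all genes) and 5 lower after 6 Gy (34.4% of all genes in either direction). At 6 h after 6 Gy 1 gene was then lower (COL11A1, 2.88% of all genes), and between doses at 24 h 1 was higher (COL5A1, 3.66% of all genes). With no filter on low counts, 4 were higher at 24 h after 1 Gy (COL4A3 and COL6A3 added), 1 was higher at 6 h after 6 Gy, 1 was higher and 1 lower between doses at 24 h, and 1 was lower in the interaction. At an adjusted p under 0.01, 4 were higher at 24 h against 6 h after 1 Gy. For the settings other than no minimum fold, the replicate block among them, no share over all genes is given here. Their counts show only how the calls moved with the setting.

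Same-numbered replicates did not deviate together throughout (15 of 30 pairs had a correlation above 0.1, range -0.15 to 0.37), so that the numbers were not taken as pairs. As a hint from the data, only 4 of 60 differently numbered pairs passed 0.1, the medians were 0.0998 and -0.05, and 12 of 15 libraries correlated best with their own number. With the replicate number as a block, 1 gene was higher between doses at 24 h (COL4A3) and 1 in the interaction (COL7A1). The block changed no other count by over 1.5 times. Leaving out each library in turn gave 2 to 4 higher and 2 to 3 lower at 24 h after 1 Gy, 8 to 10 higher and 2 to 3 lower at 24 h after 6 Gy, 0 to 1 lower at 6 h after 6 Gy, 2 to 8 higher and 1 to 3 lower at 24 h against 6 h after 1 Gy, and 13 to 14 higher and 3 lower after 6 Gy.

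Dividing counts by length gave fibrillar shares of 22.7% (control), 21.4% and 30.4% (6 h and 24 h after 1 Gy) and 20.1% and 29.4% (after 6 Gy), basement membrane shares of 12.6%, 12.2%, 15.2%, 12.6% and 15.6%, and other shares of 64.7%, 66.3%, 54.3%, 67.4% and 55.0% in the same order. Without the top member of each class (COL1A2, COL4A2, COL6A1) they were 26.4%, 24.9%, 35.2%, 23.5% and 35.9%, then 19.0%, 18.2%, 19.9%, 18.5% and 20.3%, then 54.7%, 56.8%, 44.9%, 58.0% and 43.8%. Leaving out both tested libraries with high COL6A3, chosen after seeing the data, changed no count by over 1.5 times. Low counts limit COL4A3, COL8A1, COL11A2 and COL26A1. The cause of these shifts was not tested.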
